A study of Mus musculus with 15 samples.

Results

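The 34 genes described here include the Myc family, its partner Max, and Mxd1 and Mxd4, which pair with Max and oppose Myc. The other 28 are genes of ribosome assembly, RNA polymerase I and polyamine or pyrimidine synthesis, a set known as targets of Myc. The 34 genes were chosen by gene symbol from a count table of 27179 mouse genes. All 34 were in the table, and all 34 passed the low-count filter of the tests, which left 13883 genes. The RNA came from epithelial cells of normal colon and of dissected colonic tumors from mice that carry the Lrig1-eGFP-IRES-CreERT2 reporter allele and the APCmin mutation, so every group carries both and none is wild type. Lrig1 is a receptor-like protein at the surface of intestinal crypt cells, and the reporter drives green fluorescence from its locus. Cells with EpCam and without CD45 or CD31 were sorted by that fluorescence into a high and a low fraction. The groups are tumor Lrig1-high (3 libraries, S04, S08 and S12), normal Lrig1-high (4 libraries, S02, S06, S10 and S14), tumor Lrig1-low (3 libraries, S03, S07 and S11) and normal Lrig1-low (4 libraries, S01, S05, S09 and S13). A further library labelled tumor Lrig1-low, S15, held 357 counts and was not compared. The labels give no age, no animal and no pooling, so p-values measure only the spread between these libraries, which may be technical.

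Myc and its relatives Mycn and Mycl are transcription factors that bind the DNA sequence CACGTG, called the E-box, as a dimer with Max. Mxd1 and Mxd4 also pair with Max, and they repress where Myc activates. Myc is known to raise ribosome production at several steps, from transcription of ribosomal RNA by RNA polymerase I to its cleavage, modification and assembly with proteins in the nucleolus. In the intestine Myc is a known target of Wnt signaling, and the loss of Apc, which restrains that signaling, is known to raise it. In normal crypts Myc marks dividing progenitors, and Mxd1 marks cells that have stopped dividing.

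The E-box was looked for in RefSeq promoter sequences (build GRCm38.p6), each a window of 300 bases from 250 before to 50 after a gene start. The table held 27 of the 34 genes. Npm1, Bop1, Srm, Myc, Rrp12, Rrs1 and Fbl were not among them. CACGTG reads the same on both strands, and it was in a window of 6 of the 27 genes (22.2%), against 11.6% of the 10696 tested genes in the table and 8.09% of all 27025 genes in it. The variant CACGCG, or CGCGTG on the other strand, was in a window of 8 of the 27 (29.6%), against 19.6% of tested genes and 10.5% of all genes. These genes were Bysl, Mycl, Nip7, Nolc1, Nop16, Odc1, Pes1 and Ppan. The stretches that hold the E-box are shown because they include Max, which is Myc's own partner, and Nop2 and Pes1, whose levels are described below. The capitals mark the E-box, and each sequence is on the gene's own strand. Max is at chr12:76962239-76962348 on the minus strand, Mxd4 at chr5:34187860-34187960 on the minus strand, Nop2 at chr6:125131773-125131882 on the plus strand, Pes1 at chr11:3963875-3963994 on the plus strand, Wdr43 at chr17:71616115-71616240 on the plus strand and Utp20 at chr10:88826765-88826794 on the minus strand.
Max: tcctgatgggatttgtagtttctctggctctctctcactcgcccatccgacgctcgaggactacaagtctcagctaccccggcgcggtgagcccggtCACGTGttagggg
Mxd4: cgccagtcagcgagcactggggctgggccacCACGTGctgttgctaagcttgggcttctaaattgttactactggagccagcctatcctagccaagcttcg
Nop2: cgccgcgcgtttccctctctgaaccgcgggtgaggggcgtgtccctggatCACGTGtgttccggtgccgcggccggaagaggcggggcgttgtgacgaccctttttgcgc
Pes1: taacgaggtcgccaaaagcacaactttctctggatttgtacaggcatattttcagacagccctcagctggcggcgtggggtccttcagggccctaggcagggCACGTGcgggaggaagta
Wdr43: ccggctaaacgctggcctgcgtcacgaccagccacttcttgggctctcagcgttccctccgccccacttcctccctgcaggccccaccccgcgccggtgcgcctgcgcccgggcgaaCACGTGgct
Utp20: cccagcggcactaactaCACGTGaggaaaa
Counted from the gene start, the E-box begins at -3 in Max, -219 in Mxd4 and -60 in Nop2, and at 3 in Pes1, 18 in Wdr43 and 38 in Utp20. A match describes these letters only and does not show binding.

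The 14 libraries held 9508505 to 17296536 counts. Mitochondrial ribosomal RNA took 12.9% to 42.8% of them, with most in S12, a tumor Lrig1-high library in which 11995 genes had a count. Among the 8719 tested genes with a mean of at least 10 CPM (counts scaled to a common library size, with sizes scaled by edgeR's TMM method), 501 were under 1 CPM in S12, against 43 or fewer in every other library. In the same genes, 39 were over 10 times the next highest library in S14, against 17 or fewer in every other library. Lrig1 itself went against the label in 4 libraries. The libraries labelled Lrig1-high S08 and S10 had 55.7 and 36.4 CPM, against 72.5 to 148.2 CPM in the others of that label. The libraries labelled Lrig1-low S07 and S09 had 141.7 and 85.5 CPM, against 43.0 to 54.0 CPM in the others of that label. Absorptive enterocyte markers such as Fabp1 and Apoa4 averaged 6.43 to 9.20 per library in mean log2(CPM + 1), and colonocyte markers such as Car1 and Aqp8 averaged 1.07 to 3.12, although the label of the tissue is colon. Epithelial markers were at 8.83 to 10.1 on the same scale. Leukocyte, endothelial and fibroblast markers were at 0.474, 2.19 and 1.37 or less.

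Per kilobase of the deposited gene length, Npm1 and Ncl were the most abundant of the 34 genes. That length, 1718 bases for Npm1 and 8257 for Ncl, need not be that of the transcripts present, and the order of genes depends on it. Rrp9 followed Npm1 and Ncl by its mean over the 14 libraries, 135.8 ± 469.8 RPKM. That mean rests on S14 and is taken up with the small subunit genes. Npm1, which encodes the nucleolar chaperone nucleophosmin, averaged 221.0 ± 66.7 RPKM (CPM per kilobase of the deposited gene length; SD over n = 14 libraries), and Ncl, which encodes nucleolin, 206.4 ± 119.3 RPKM, which is within that spread. Nop58 and Nop56, core proteins of the ribonucleoproteins that methylate ribosomal RNA, came after these at 55.0 ± 17 and 41.9 ± 15.1 RPKM. Myc averaged 27.4 ± 14.8 RPKM, above Mycl at 11.5 ± 5.39 RPKM and Mycn at 4.58 ± 2.17 RPKM. Max averaged 20.5 ± 3.28 RPKM, Mxd4 18.6 ± 2.69 RPKM and Mxd1 15.7 ± 13 RPKM. The lowest by this measure was Nip7, a factor of large subunit assembly, at 3.71 ± 1.30 RPKM. The genes differed in how much they varied. Max, Odc1 and Mxd4 had 1.59, 1.65 and 1.88 times as much CPM in their highest library as in their lowest, whereas the ratio was 6.88 for Myc and 10.3 for Mxd1.

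**Figure D1:**
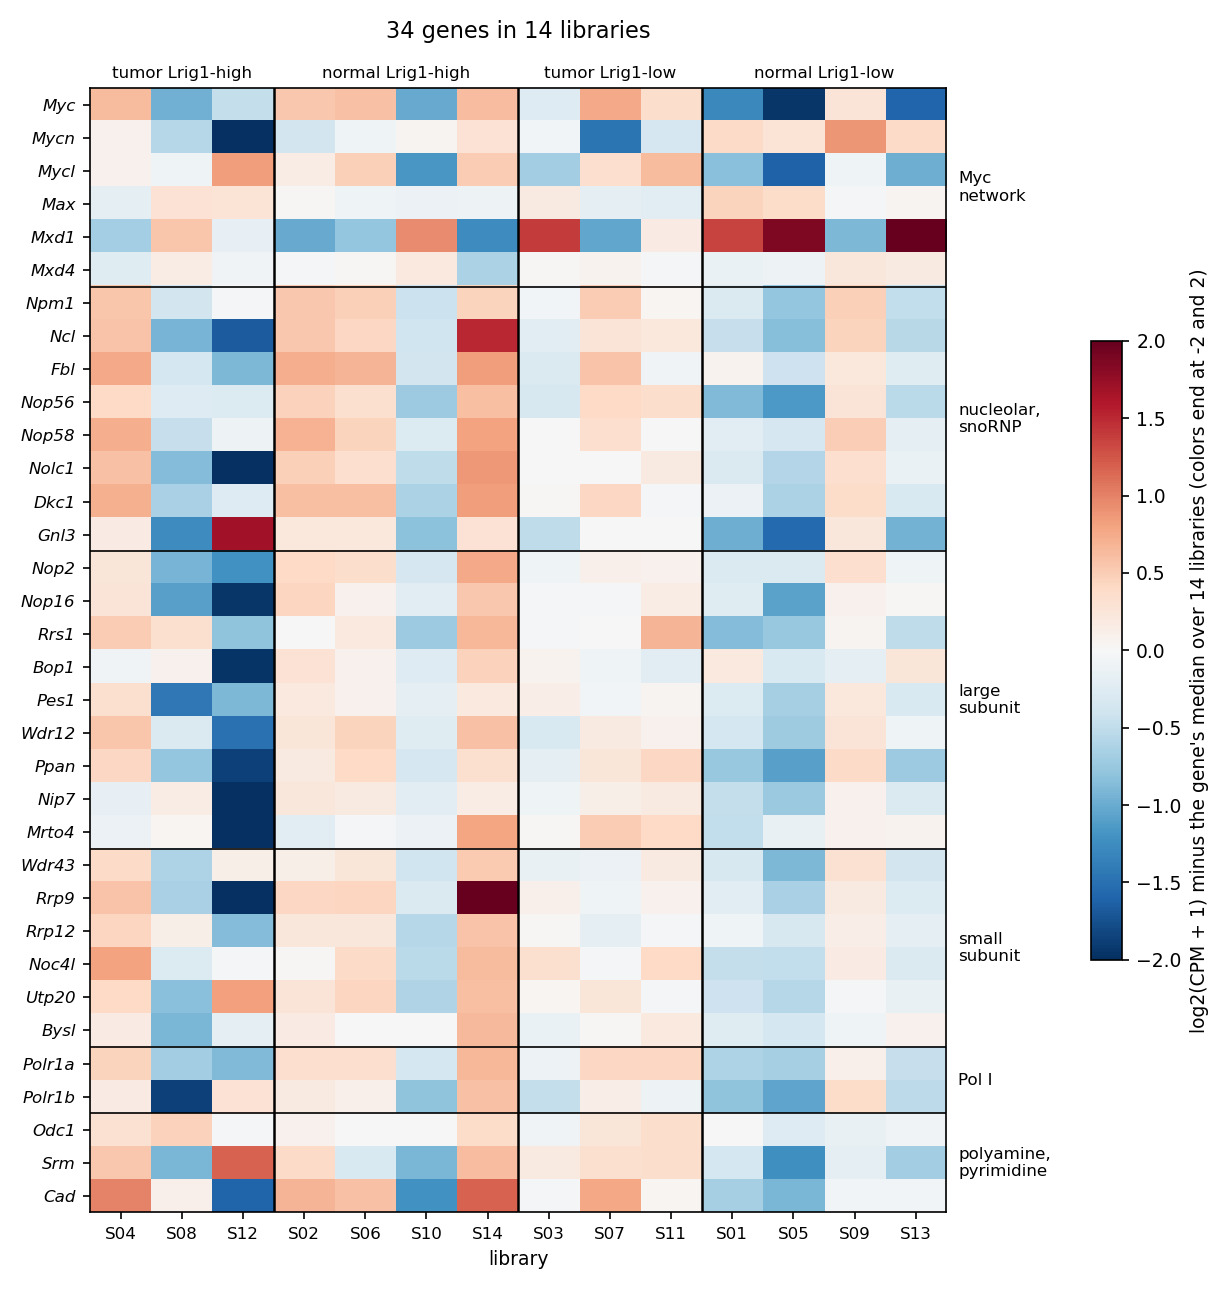
Level of each of the 34 genes (rows, grouped by role) in each of the 14 libraries (columns, grouped by label), as log2(CPM + 1) minus the gene's median over the libraries. S02, S04, S06 and S14 are mostly red (27 to 31 genes above their median), and S05, S10, S01 and S12 are mostly blue (3 to 7 genes above their median).

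Most of the 34 genes tended to be high or low together in a library, but not all of the Myc network. Mxd1 was highest in S13 and lowest in S14, and Mxd4 was also lowest in S14. The 4 libraries that went against their Lrig1 label, with S11 and S12, stood apart from the rest of their label here too. In Lrig1-high libraries, 28 of 34 genes were above their own median in S04, 30 in S02, 27 in S06 and 31 in S14, but 10 in S08, 7 in S12 and 4 in S10. In Lrig1-low libraries, 6 were above their median in S01, 3 in S05, 8 in S13 and 12 in S03, but 23 in S07, 24 in S11 and 25 in S09. S14 was the highest library for 18 of the 34 genes, and S12 was the lowest for 15. S12 was also the highest library for 4, which were Gnl3, Mycl, Srm and Utp20. Over the 14 libraries the mean level of the 34 genes ranged from 4.71 in S12 to 6.25 in S14, in mean log2(CPM + 1). Single genes widen that range. Rrp9 was at 2717 CPM in S14, and 4 of the 34 were under 1 CPM in S12, with Rrp9 at 0.

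**Figure D2:**
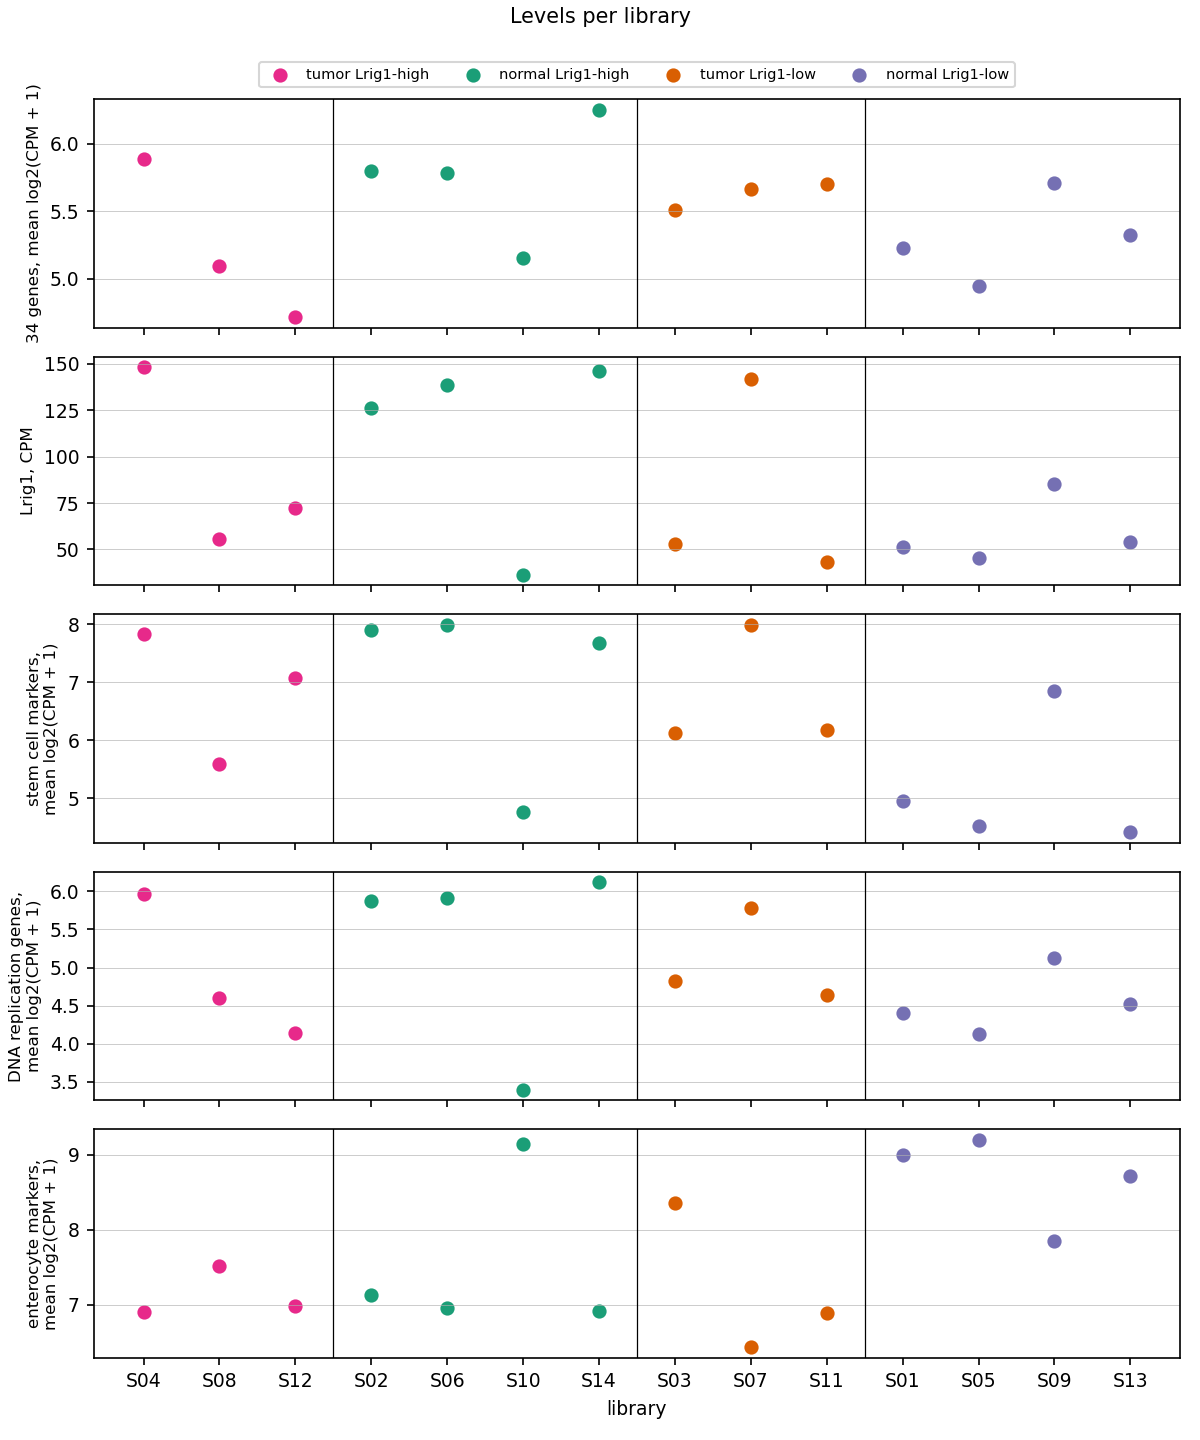
Mean level of the 34 genes, Lrig1 CPM, and mean levels of stem cell, DNA replication and enterocyte markers in each library, colored by labelled group. S10, S08 and S12 are low for the 34 genes among the Lrig1-high libraries (4.71 to 5.16), and S07, S11 and S09 are high among the Lrig1-low ones (5.66 to 5.71).

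Markers of cell state and cell type also differed between libraries, in part along the same lines. The stem cell markers were at 7.67 to 7.99 in S02, S04, S06, S07 and S14, and at 4.41 to 4.95 in S01, S05, S10 and S13. DNA replication genes were at 5.78 to 6.12 in the same 5 libraries, and at 3.4 to 4.52 in the same 4. Paneth cell markers were at 6.94 to 9.52 and at 2.96 to 4.01 in these sets of libraries. Absorptive enterocyte markers were at 6.43 to 7.13 in the set of 5 and at 8.72 to 9.20 in the set of 4. The other libraries were less clear. S11, with the 34 genes at 5.70 as in S07 (5.66), had stem cell markers at 6.17, DNA replication genes at 4.64 and Paneth markers at 4.16. S09, with the 34 genes at 5.71, had 6.84, 5.12 and 7.81 for these lists. S03 had 6.12, 4.82 and 4.59, and S08 had 5.59, 4.59 and 4.86. S12, lowest for the 34 genes, had stem cell markers at 7.07 and DNA replication genes at 4.14. The part of these cell types in the results below was not tested. In bulk RNA, fewer cells of a type and less RNA per cell cannot be told apart.

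Of the comparisons, that of Lrig1-high with Lrig1-low cells in normal epithelium had the most positive fold changes among the 34 genes. No gene of the 34 passed there at an adjusted p under 0.05 in edgeR (quasi-likelihood test, Benjamini-Hochberg over all 13883 genes). No gene of the whole table did (0.0%), with 499 genes at an unadjusted p under 0.05. In DESeq2 1 gene of the table passed, and none of the 34 did. The fold change was positive, which means higher in Lrig1-high cells, for 30 of the 34 genes, with a median of 0.50 on the log2 scale, against a median of 0.01 and 51.2% positive over all genes tested. The 4 negative ones were Mycn, Max, Mxd1 and Mxd4, all of the Myc network. All 28 genes outside that network were positive, from 0.17 for Bop1 to 5.58 for Rrp9. Of the 34, 4 were higher and 1 was lower at an unadjusted p under 0.05, against 2.54% of all genes higher and 1.06% lower. No gene of the 34 separated all Lrig1-high from all Lrig1-low normal libraries, against 1.63% of all genes higher and 1.21% lower without overlap.

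That comparison depended on how the libraries were weighted. In limma-voom with a weight per library, where S12 had the lowest weight (0.0825), S04, S07, S08, S09, S10 and S11 had weights of 0.348 to 0.700 and the others 1.84 to 3.33, 24 of the 34 genes were higher and 1 was lower in normal Lrig1-high cells, against 14.8% of all genes higher and 15.2% lower. In edgeR without the 4 libraries that went against their Lrig1 label, 9 were higher and 1 was lower, against 3.39% and 2.30% of all genes. Those 9 were Myc, Mycl, Npm1, Nop56, Nop58, Dkc1, Gnl3, Utp20 and Polr1b, and the lower one was Mxd1. The 4 libraries were picked by a gene measured in these same cells. The fit without them is therefore not independent evidence of a difference, and its p-values are too small. The limma-voom weights were estimated from these same counts, and of the normal libraries S10 (0.348) and S09 (0.691) had the lowest. The limma-voom fit is therefore not a separate line of evidence.

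**Figure D3:**
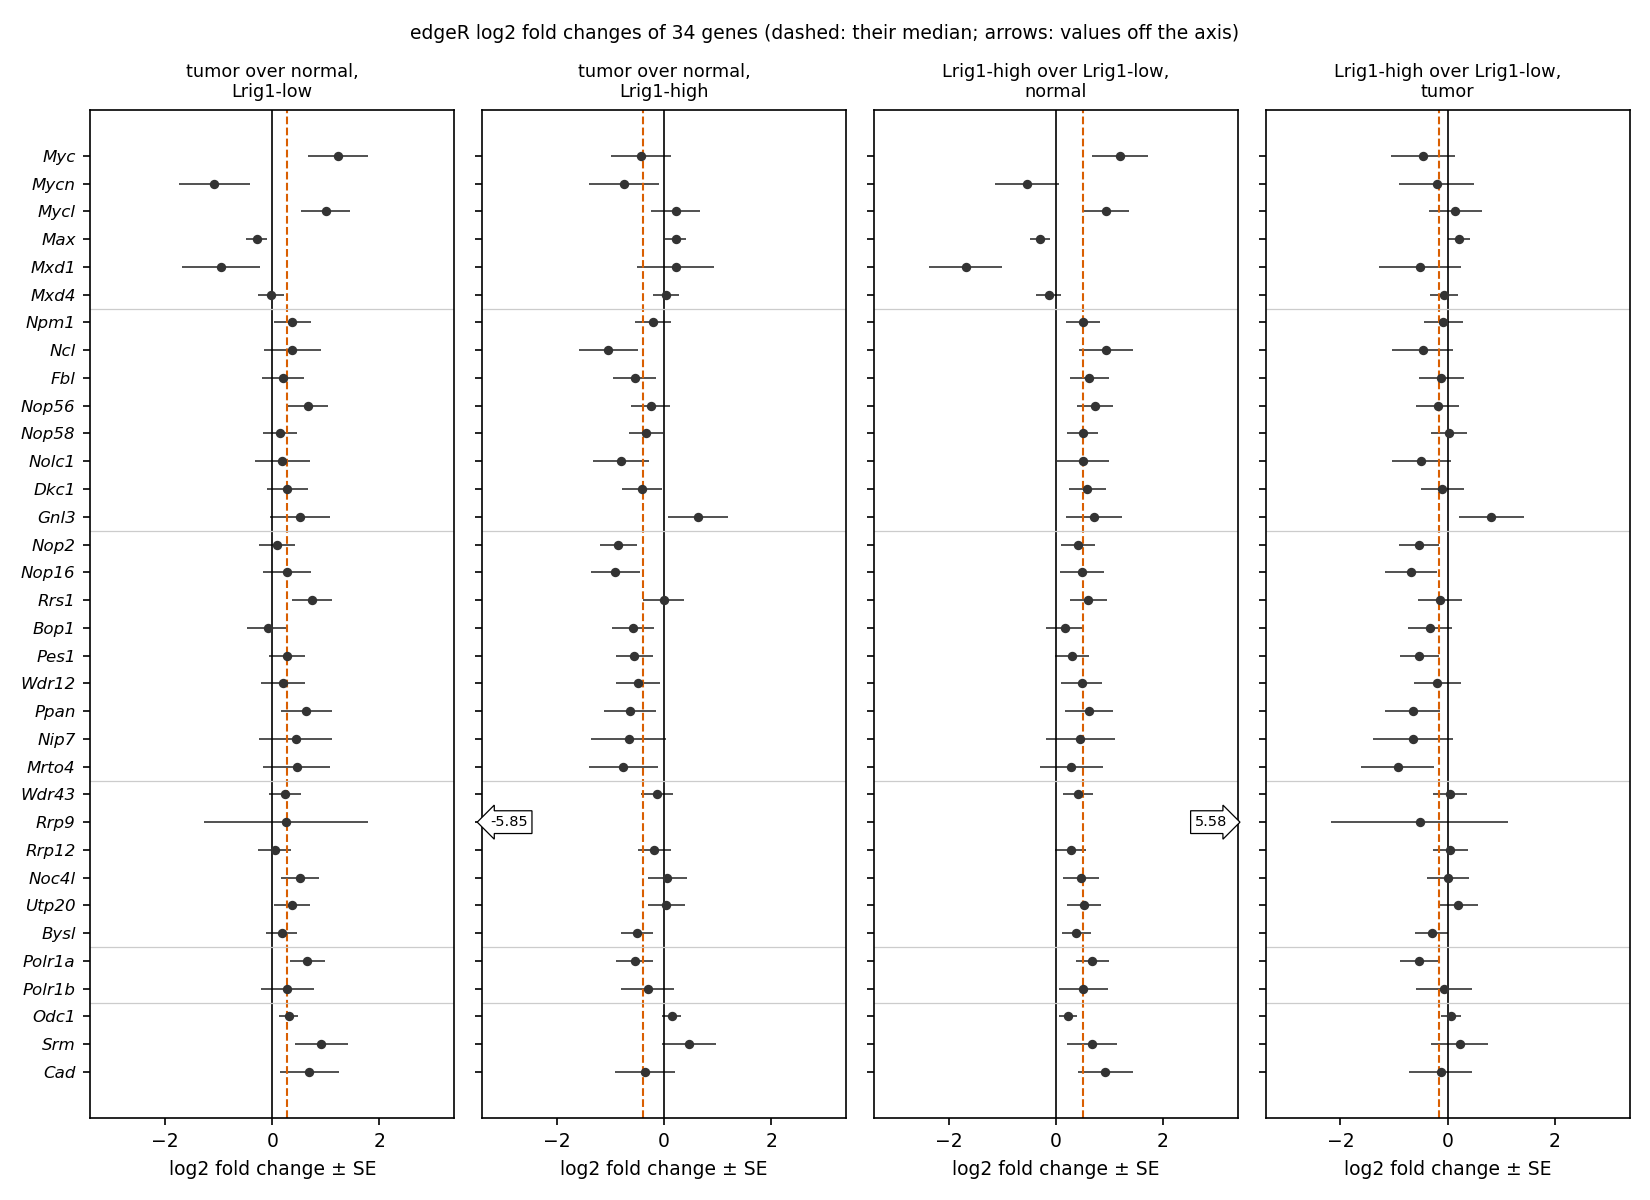
edgeR log2 fold change ± SE of each of the 34 genes in 4 comparisons, in rows by role, with the median of the 34 dashed. The medians are 0.28 and -0.39 for tumor over normal in Lrig1-low and Lrig1-high cells, and 0.50 and -0.17 for Lrig1-high over Lrig1-low in normal and tumor cells. No value passed the test.

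Between tumor and normal Lrig1-low cells, no gene of the 34 passed in edgeR or in DESeq2, while 43 genes of the table were higher (0.31%) and 3 lower (0.0216%) in edgeR. The fold change of tumor over normal was positive for 29 of the 34 and for 52% of all genes. The median was 0.28 for the 34, against 0.02 over all genes. At an unadjusted p under 0.05, 2 of the 34 were higher, Myc and Mycl, and none was lower, against 8.95% of all genes higher and 5.09% lower. Srm and Cad were higher in every tumor library than in every normal one, and Mycn was lower. Thus 2 of 34 were higher and 1 lower without overlap, against 9.95% and 8.39% of all genes. For Cad the gap was narrow, from 61.4 CPM in the highest normal library to 62.0 CPM in the lowest tumor one. Myc was called higher in limma-voom, where 7.64% of all genes were higher and 2.37% lower, and without the 4 libraries that went against their Lrig1 label, where 3.09% were higher and 0.143% lower. Neither of these fits is independent evidence, for the reasons given above. The normal Lrig1-low libraries are also the lower arm of the comparison of fractions in normal epithelium, so the fold changes of both share them.

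Between tumor and normal Lrig1-high cells, 25 of the 34 had a negative fold change, with a median of -0.39 against -0.04 over all genes. The fold change was positive for 9 of the 34, against 47.4% of all genes. No gene of the table passed in edgeR (0.0%), with 1559 genes at an unadjusted p under 0.05. Of the 34, Rrp9 and Nop2 were lower at that p and none was higher, against 4.15% of all genes lower and 7.08% higher. DESeq2 called 114 genes, and none of the 34. None of the 34 separated the tissues without overlap, against 3.37% of all genes higher and 5.02% lower. All 9 genes of large subunit assembly were negative, from -0.91 for Nop16 to -0.01 for Rrs1. Of the 3 tumor libraries S04 alone was high for most of the 34. Without S04, Nolc1, Nop2, Nop16 and Pes1 were called lower in tumor cells and none of the 34 higher, against 3.77% of all genes lower and 1.82% higher, so the 2 tumor libraries left, S08 and S12, decide that call. S08 went against its Lrig1 label, and S12 lacked counts for many genes.

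In tumors, Lrig1-high over Lrig1-low gave a median of -0.17 for the 34 genes, against -0.06 over all genes. The fold change was negative for 24 of the 34 and positive for 10, against 45.7% positive over all genes. No gene of the table passed in edgeR (0.0%), with 1042 at an unadjusted p under 0.05 (3.61% higher and 3.90% lower), none of the 34 among them. DESeq2 called 22 genes and none of the 34. None of the 34 separated the fractions without overlap, against 2.22% of all genes higher and 5.24% lower. Without S04, Pes1 was called lower and none of the 34 higher, against 2.24% of all genes lower and 0.284% higher. The tumor Lrig1-high group then held only S08 and S12, which decide that call. Without the 4 libraries that went against their Lrig1 label, the median of the 34 was 0.02, and 18 were positive. Over both fractions, tumor over normal gave a median of -0.05 for the 34, with 14 positive. Over all genes the median was -0.02, with 48.4% positive. None of the 34 was called, against 1.82% of all genes higher and 0.396% lower, or 2.22% in either direction. At an unadjusted p under 0.05, 1 of the 34 was lower, Rrp9, and none was higher, against 6.75% of all genes lower and 10.6% higher. Without overlap between tumor and normal libraries there were 0 of the 34, against 0.886% of all genes higher and 0.569% lower.

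The tissue difference was set against itself between fractions in a test of the interaction, tumor over normal in Lrig1-high cells minus the same in Lrig1-low cells. The median of the 34 genes was -0.69, against -0.09 over all genes. Of the 34, 29 were negative and 5 positive, against 45.4% positive over all genes. No gene of the table passed in edgeR (0.0%), with 999 at an unadjusted p under 0.05. Rrp9 and Polr1a of the 34 were negative at that p and none was positive, against 4.26% of all genes negative and 2.93% positive. DESeq2 called 5 genes and none of the 34. The interaction was not called for any of the 34 in any alternative setting that was run.

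Myc (gene 17869, mm10 chromosome 15, 61985341 to 61990361) was at 104.1, 33.8 and 47.7 CPM in tumor Lrig1-high libraries, against 97.7, 101.0, 32.6 and 102.5 CPM in normal Lrig1-high libraries. It was at 55.6, 113.9 and 85.6 CPM in tumor Lrig1-low libraries, against 26.7, 16.6, 80.2 and 21.5 CPM in normal Lrig1-low libraries. The low values among Lrig1-high libraries were those of S08, S10 and S12, and the high value among normal Lrig1-low libraries was that of S09, so the groups overlapped in every comparison. The log2 fold change was 1.23 ± 0.56 for tumor over normal in Lrig1-low cells (SE, edgeR adjusted p = 0.343) and 1.2 ± 0.53 for Lrig1-high over Lrig1-low in normal cells (adjusted p = 1). In Lrig1-high cells tumor over normal was -0.43 ± 0.57 (adjusted p = 0.76), and in tumors Lrig1-high over Lrig1-low was -0.46 ± 0.60 (adjusted p = 0.862). Single libraries moved these values, to -1.04 and -1.06 without S04 and to -0.14 and -0.16 without S08. Without S09 the values of 1.23 and 1.2 became 1.95 and 1.97. Without S07, S08, S09 and S10 the value for tumor over normal in Lrig1-low cells was 1.69 ± 0.33 (edgeR adjusted p = 0.0306), and that in normal cells 2.23 ± 0.32 (adjusted p = 0.00754). That for tumors turned to 0.17. These libraries were picked by Lrig1 in the same cells, so this fit is not independent evidence and its p-values are too small.

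Mycl (chromosome 4, 122996099 to 123002485), the family member first found in lung cancer, was at 42.7, 38.2 and 73.0 CPM in tumor Lrig1-high libraries, against 44.8, 56.5, 17.5 and 58.1 CPM in normal Lrig1-high libraries. It was at 24.6, 51.2 and 63.5 CPM in tumor Lrig1-low libraries, against 22.3, 12.4, 38.0 and 20 CPM in normal Lrig1-low libraries. S10 and S09 again stood apart from the rest of their groups, which overlapped. The log2 fold change of tumor over normal was 1.0 ± 0.46 in Lrig1-low cells (edgeR adjusted p = 0.344) and 0.21 ± 0.46 in Lrig1-high cells (adjusted p = 0.856). Mycn averaged 7.22 ± 6.25 CPM in tumor Lrig1-high cells and 12.2 ± 2.46 CPM in normal Lrig1-high cells, and 8.37 ± 4.11 CPM in tumor Lrig1-low cells and 17.7 ± 3.80 CPM in normal Lrig1-low cells (SD, n = 3 and 4). It was lower in tumor than in normal libraries on average in both fractions. The difference did not pass the test in either (-0.75 and -1.08 on the log2 scale). Among tumor Lrig1-high libraries S12 was at 0.649 CPM, from 6 counts. S04 and S08 were at 13.1 and 7.94 CPM, and the normal Lrig1-high libraries at 9.34 to 15.2 CPM.

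Mxd1 (chromosome 6, 86647044 to 86669159), the repressor that competes for Max, tended to be high in the libraries where Myc was low. It was at 29.2, 70.0 and 42.3 CPM in tumor Lrig1-high libraries, against 23.1, 27.3, 92.6 and 19.3 CPM in normal Lrig1-high libraries. It was at 126.5, 22.6 and 53.0 CPM in tumor Lrig1-low libraries, against 121.9, 175.8, 24.9 and 199.3 CPM in normal Lrig1-low libraries. S10 was the highest of the normal Lrig1-high libraries and S09 the lowest of the normal Lrig1-low ones. In normal cells Lrig1-high over Lrig1-low was -1.68 ± 0.68 (log2, SE, edgeR adjusted p = 1), and -2.81 ± 0.36 without S07, S08, S09 and S10 (adjusted p = 0.0064). The last p-value is too small, since those libraries were picked by Lrig1 in the same cells. In tumors Lrig1-high over Lrig1-low was -0.51 ± 0.77 (edgeR adjusted p = 0.884). Per length, Myc had 0.937, 2.19 and 6.93 times the RPKM of Mxd1 in the 3 tumor Lrig1-high libraries, against 0.683 to 10.3 times in the normal ones. The ratio was 0.854, 3.14 and 9.80 in tumor Lrig1-low libraries, and in normal Lrig1-low libraries it was 6.26 in S09 and 0.183 to 0.425 in the others. Max averaged 43.4 ± 7.64 CPM in tumor Lrig1-high cells, 37.3 ± 1.75 CPM in normal Lrig1-high cells, 37.5 ± 6.07 CPM in tumor Lrig1-low cells and 45.9 ± 7.30 CPM in normal Lrig1-low cells. The fold changes of Max and Mxd4 lay between -0.30 and 0.51 in every comparison.

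**Figure D4:**
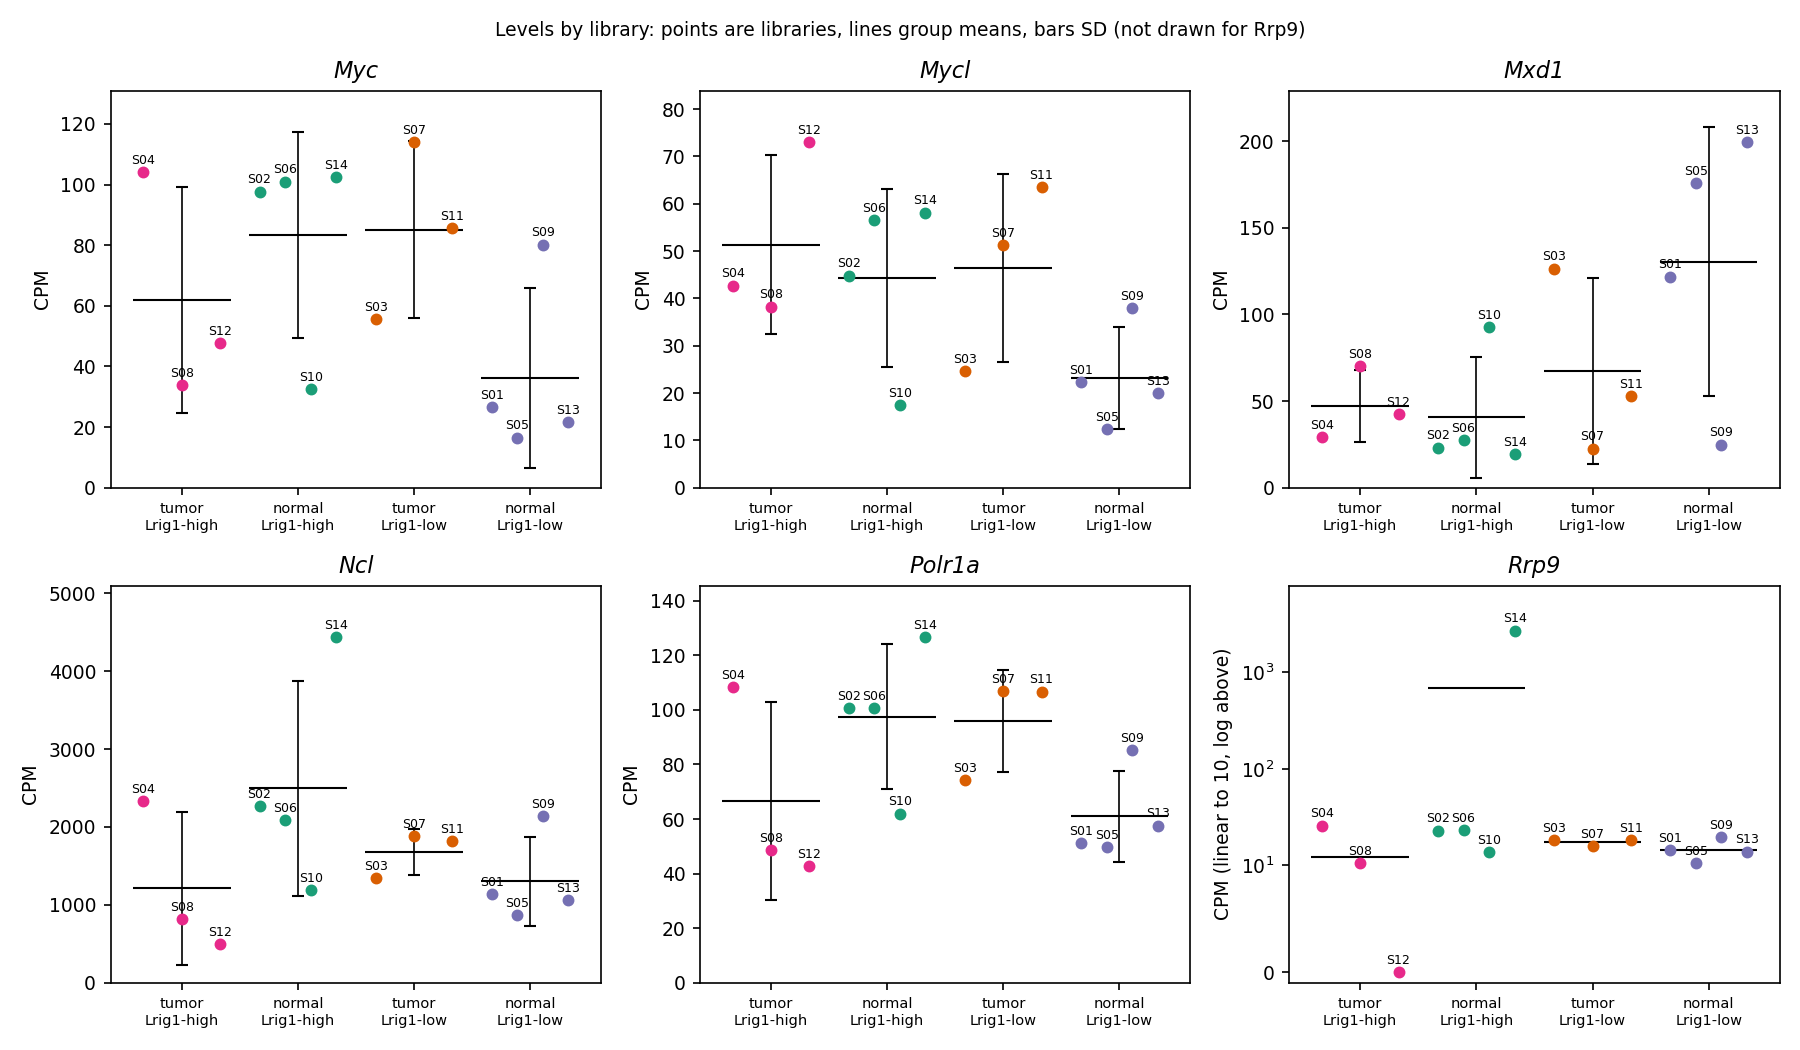
CPM of Myc, Mycl, Mxd1, Ncl, Polr1a and Rrp9 in each library (points), with group means (lines) and SD (bars, not drawn for Rrp9, whose axis is linear to 10 and logarithmic above). Myc is low in S08, S10 and S12 of the Lrig1-high libraries and high in S09 of the normal Lrig1-low libraries, Mxd1 shows the opposite for S08, S10 and S09, and Rrp9 stands at 2717 CPM in S14.

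Of the 8 nucleolar and snoRNP proteins, Ncl (chromosome 1, 86344719 to 86359455) took the most counts. Nucleolin binds ribosomal RNA precursors and aids their transcription and folding. It was at 2333, 816.8 and 493.5 CPM in tumor Lrig1-high libraries, against 2266, 2088, 1192 and 4434 CPM in normal Lrig1-high libraries. It was at 1346, 1880 and 1817 CPM in tumor Lrig1-low libraries, against 1135, 868.1, 2135 and 1062 CPM in normal Lrig1-low libraries. The tumor Lrig1-high libraries S08 and S12 were the lowest of all 14, and S14 was the highest. Tumor over normal was -1.04 ± 0.55 in Lrig1-high cells (log2, SE, edgeR adjusted p = 0.488) and 0.37 ± 0.53 in Lrig1-low cells (adjusted p = 0.902), and Lrig1-high over Lrig1-low in normal cells was 0.94 ± 0.50 (adjusted p = 1). The value in Lrig1-high cells was -1.93 without S04 and -0.62 without S14, that in Lrig1-low cells 0.18 without S05 and 0.69 without S09, and that in normal cells 0.52 without S14. The other 7 genes of this group, among them Fbl, which encodes the methyltransferase fibrillarin, and Dkc1, which encodes the pseudouridine synthase dyskerin, were also positive for Lrig1-high over Lrig1-low in normal cells, from 0.50 to 0.73. In tumors 6 of the 8 were negative. Gnl3, which encodes the stem cell protein nucleostemin, was at 193.3 CPM in S12, against 19.8 to 73.2 CPM in the other 13 libraries, and is named here after its values were seen.

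Large subunit assembly was represented by 9 genes. Pes1 (chromosome 11, 3963975 to 3980004) took the most counts of these, and with Bop1 and Wdr12 it forms a complex needed to process the RNA of the large subunit. Pes1 was at 79.8, 23.0 and 33.5 CPM in tumor Lrig1-high libraries, against 72.7, 67.5, 55.2 and 72.5 CPM in normal Lrig1-high libraries. It was at 69.8, 60.9 and 66.1 CPM in tumor Lrig1-low libraries, against 52.5, 39.8, 74.0 and 51.3 CPM in normal Lrig1-low libraries. S08 and S12 had the lowest values of all. In tumors Lrig1-high over Lrig1-low was -0.53 ± 0.36 (log2, SE, edgeR adjusted p = 0.736), -1.21 ± 0.27 without S04 (adjusted p = 0.0419) and -0.21 without S08. Nop2 (chromosome 6, 125131883 to 125144753), a methyltransferase of ribosomal RNA, was at 49, 21.1 and 17.2 CPM in tumor Lrig1-high libraries, against 54.9, 52.7, 32.2 and 70.3 CPM in normal Lrig1-high libraries. It was at 38.7, 44.2 and 43.6 CPM in tumor Lrig1-low libraries, against 33.6, 33.5, 52.5 and 38.9 CPM in normal Lrig1-low libraries. Its values in S04 lay among those of the normal Lrig1-high libraries and those in S08 and S12 below them. Tumor over normal was -0.85 ± 0.35 in Lrig1-high cells (edgeR adjusted p = 0.392), -1.46 there without S04 (adjusted p = 0.027), and 0.09 ± 0.34 in Lrig1-low cells (adjusted p = 0.982). The p-values of Pes1 and Nop2 without S04 rest on S08, which went against its Lrig1 label, and S12, which lacked counts for many genes. Nip7 and Mrto4, also of large subunit assembly, were at 0.324 and 0.649 CPM in S12, from 3 and 6 counts.

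Of the 6 genes of small subunit assembly, Rrp9 (chromosome 9, 106477309 to 106485415), a protein of the U3 snoRNP, had the largest fold changes of the 34, and they rested on S14. It was at 25.6, 10.4 and 0 CPM in tumor Lrig1-high libraries, against 22.8, 23.1, 13.6 and 2717 CPM in normal Lrig1-high libraries. It was at 18.2, 15.8 and 18.1 CPM in tumor Lrig1-low libraries, against 14.3, 10.5, 19.3 and 13.8 CPM in normal Lrig1-low libraries. The value in S14 came from 37539 counts, and S12 had no count, which allows up to 0.324 CPM at 3 counts (counting error only). In every other library Rrp9 lay between 10.4 and 25.6 CPM. Lrig1-high over Lrig1-low in normal cells was 5.58 ± 1.71 with S14 (log2, SE, edgeR adjusted p = 1) and 0.47 without it (adjusted p = 1), and tumor over normal in Lrig1-high cells was -5.85 ± 1.98 with S14 (adjusted p = 0.355) and -0.74 without it (adjusted p = 0.832). The interaction of Rrp9, -6.11 with S14, was -0.96 without it. The other 5 genes, Wdr43, Rrp12, Noc4l, Utp20 and Bysl, were positive for Lrig1-high over Lrig1-low in normal cells, from 0.28 to 0.52, and lay between -0.50 and 0.06 for tumor over normal in Lrig1-high cells.

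RNA polymerase I transcribes ribosomal RNA, and Polr1a and Polr1b encode its largest subunits. Polr1a (chromosome 6, 71909053 to 71979360) was at 108.3, 48.5 and 42.7 CPM in tumor Lrig1-high libraries, against 100.7, 100.8, 62.0 and 126.6 CPM in normal Lrig1-high libraries. It was at 74.2, 106.8 and 106.6 CPM in tumor Lrig1-low libraries, against 51.3, 49.8, 85.2 and 57.5 CPM in normal Lrig1-low libraries. The tumor Lrig1-low libraries other than S03 were above every normal Lrig1-low library, and S08 and S12 were below every other library. The log2 fold change of tumor over normal was 0.65 ± 0.33 in Lrig1-low cells (edgeR adjusted p = 0.417) and -0.55 ± 0.34 in Lrig1-high cells (adjusted p = 0.535). The interaction was -1.2 ± 0.47, at an unadjusted edgeR p of 0.0237 and an adjusted p of 0.685.

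Odc1, Srm and Cad encode enzymes that make polyamines and pyrimidines. Odc1 (chromosome 12, 17544873 to 17551502), ornithine decarboxylase, was among the steadiest of the 34 genes. It was at 88.4, 98.4 and 69.1 CPM in tumor Lrig1-high libraries, against 75.7, 70.5, 70.5 and 91.9 CPM in normal Lrig1-high libraries. It was at 67.9, 84.7 and 90.8 CPM in tumor Lrig1-low libraries, against 71.7, 59.6, 64.1 and 67.7 CPM in normal Lrig1-low libraries. The groups overlapped, with tumor over normal at 0.30 ± 0.17 in Lrig1-low cells (log2, SE, edgeR adjusted p = 0.511) and 0.14 ± 0.17 in Lrig1-high cells (adjusted p = 0.737). Srm (chromosome 4, 148591513 to 148594619), spermidine synthase, was at 19.7, 6.57 and 31.4 CPM in tumor Lrig1-high libraries, against 17.6, 10.5, 6.61 and 20.8 CPM in normal Lrig1-high libraries. It was at 15.2, 16.8 and 17.3 CPM in tumor Lrig1-low libraries, against 10.2, 5.10, 11.6 and 7.85 CPM in normal Lrig1-low libraries. The Lrig1-low groups did not overlap, and the Lrig1-high groups did. Tumor over normal was 0.92 ± 0.50 in Lrig1-low cells (edgeR adjusted p = 0.47) and 0.69 ± 0.35 over both fractions (adjusted p = 0.338), or 0.39 without S12. Cad, the enzyme that starts pyrimidine synthesis, differed by 0.69 between tumor and normal Lrig1-low cells and by -0.36 between tumor and normal Lrig1-high cells, neither past the test.

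A further 127 genes of the same pathways were looked at beside the 34, and none passed in edgeR in any comparison. For Lrig1-high over Lrig1-low in normal cells, 12 of 13 genes of the RNA polymerase I machinery, 37 of 39 of the small subunit processome, 35 of 39 of large subunit assembly, 11 of 11 of snoRNP assembly and 14 of 17 of polyamine and nucleotide synthesis were positive, but 4 of 8 of the wider Myc network. At an unadjusted p under 0.05, 12 of the 127 were higher and none was lower, against 2.54% of all genes higher and 1.06% lower. DESeq2 called none of the 127 there, and limma-voom called 56 higher and 3 lower, against 14.8% and 15.2% of all genes. The median of the 127 was 0.28, beside 0.50 for the 34. For tumor over normal it was 0.20 in Lrig1-low cells, with 95 positive, and -0.27 in Lrig1-high cells, with 86 negative. Over all genes tested, 52% were positive in Lrig1-low cells and 47.4% in Lrig1-high cells. Of the most abundant in each list, Ubtf, an activator of RNA polymerase I, had 0.18 ± 0.31 for Lrig1-high over Lrig1-low in normal cells, Tcof1, its nucleolar partner treacle, 0.62 ± 0.45, Noc2l 0.46 ± 0.45, Bms1 0.10 ± 0.19, Mdn1 0.61 ± 0.27, Rrp1 0.13 ± 0.28, Nop53 0.13 ± 0.40, Ruvbl2 0.40 ± 0.60, Impdh2, an enzyme of guanine nucleotide synthesis, 0.83 ± 0.42, and Azin1, an inhibitor of antizyme, -0.37 ± 0.21 (log2, SE). Mlxipl, the glucose-sensing factor ChREBP, averaged 107.6 ± 38.0 CPM in tumor Lrig1-low cells and 319.1 ± 119.4 CPM in normal Lrig1-low cells (SD, n = 3 and 4), a log2 fold change of -1.57 ± 0.40 (edgeR adjusted p = 0.0906). DESeq2 called Mlxipl lower there (adjusted p = 0.00699, against 1.16% of all genes lower) and over both fractions (adjusted p = 0.0263, against 2.23%). Its other calls among the 127 were Zbtb17, the Myc partner Miz1, lower in tumor over normal Lrig1-high cells (-0.77 ± 0.21, DESeq2 adjusted p = 0.0438, against 0.288% of all genes lower), and Mnt, a repressor that pairs with Max, higher over both fractions (0.65 ± 0.22, DESeq2 adjusted p = 0.0405, against 5.40% higher). Mlxip, the relative of Mlxipl, had -0.01 ± 0.34 for tumor over normal in Lrig1-low cells (log2, SE, edgeR adjusted p = 0.998). The CACGTG E-box was in a promoter window of 26 of the 109 wider genes that the RefSeq table holds (23.9%), and CACGCG or CGCGTG in 30 of them (27.5%).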

How the data were processed

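Per the file headers, the authors' deposited counts came from featureCounts 1.5.3, which assigned reads to exons of RefSeq genes (mm10) by reverse strand. Trimmomatic, HISAT2 and Subread are named in the submitters' processing notes. The libraries were made from total RNA with a stranded kit for very small inputs, per the labels' protocols, and each read end was counted. Between 3.96% and 7.80% of counts fell on IDs that matched no symbol. Counts were tested in edgeR 4.0.16 (R 4.3.3) with TMM scaling, filterByExpr and a coefficient per group over 14 libraries, and genes were called under an adjusted p of 0.05. The SE is the absolute log2 fold change over the square root of F. The alternatives used DESeq2 1.42.0, limma 3.58.1 and other library sets. The fit was run on simulated data only for tumor over normal over both fractions, with changes larger than most of those described here. That run does not show whether changes of the size described here could be called. The 34 genes, the wider lists and the markers were chosen with earlier results of these data known. Genes described in full are Myc, the 2 genes with the smallest p in each comparison and the gene with the highest mean CPM of each role; from each wider list, the 2 with the highest mean. Srm, Cad and Mycn are also named as the genes without overlap. S15 was left out as under 1000 counts. Promoters are RefSeq's, GRCm38.p6.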

Additional observations from a re-analysis of the deposited data

Results flagged for a closer look

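In groups of 4 libraries, a gene was singled out where its highest or lowest library stood apart from the other 3 by more than Dixon's critical value of 0.829 of the group's range. Of 68 such checks 10 were over it, all in S09, S10 and S14. Chance gives about 1 in 20 where checks are independent. Most genes described here tended to be high or low together in a library, so these checks are not independent. The count of 10 therefore cannot be weighed against that rate. The share of all genes tested that would be over the critical value was not measured. In S09 of the normal Lrig1-low libraries, Myc was at 80.2 CPM against 16.6 to 26.7 CPM in the others, Mycn at 23.4 CPM against 15 to 16.3 CPM, Nop58 at 133.7 CPM against 74.5 to 82.2 CPM, and Ppan, a factor of large subunit assembly, at 39.7 CPM against 13.7 to 17.8 CPM. In S10 of the normal Lrig1-high libraries, Myc was at 32.6 CPM against 97.7 to 102.5 CPM in the others, Npm1 at 261.7 CPM against 481.0 to 513.7 CPM, Gnl3 at 33.4 CPM against 69.2 to 73.2 CPM, and Mxd1 at 92.6 CPM against 19.3 to 27.3 CPM. In S14 of the normal Lrig1-high libraries, Rrp9 was at 2717 CPM against 13.6 to 23.1 CPM in the others, and Mrto4 at 21.9 CPM against 10.3 to 12 CPM. S09 and S10 are libraries whose Lrig1 went against the label. The tumor groups hold 3 libraries each and were not checked in this way.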

How the results depend on the processing

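For tumor over normal in Lrig1-low cells, 46 genes were called in edgeR, against 706 in DESeq2, 70 with DESeq2 size factors in edgeR, 86 with a filter of at least 1 CPM in at least 4 libraries, 1389 in limma-voom, 95 with runs of 4 library numbers as a replicate block, 452 without S07, S08, S09 and S10, and 92 with S15. Limma-voom and the fit without those 4 libraries each called 1 of the 34, Myc, and neither fit is independent evidence, as said above. For tumor over normal in Lrig1-high cells, 0 genes became 114 in DESeq2, 1 with the replicate block and 12 without the 4 libraries. Over both fractions, 308 became 1060 in DESeq2, 548 in limma-voom, 165 with the replicate block and 658 without the 4. For Lrig1-high over Lrig1-low in normal cells, 0 became 1 in DESeq2, 4169 in limma-voom and 796 without the 4, with 25 and 10 of the 34 called in the last 2. In tumors, 0 became 22 in DESeq2 and 48 without the 4. For the interaction, 0 became 5 in DESeq2. The cause of these shifts was not tested. The block changed no call of the 34. The labels give no number shared by libraries of different groups, so runs of numbers are no stated pairing. With each library left out in turn, the number of genes called ran from 0 to 285 for tumor over normal in Lrig1-low cells (0 to 0 of the 34), 0 to 807 in Lrig1-high cells (0 to 4 of the 34), 34 to 1060 over both fractions (0 to 0), 0 to 0 for Lrig1-high over Lrig1-low in normal cells (0 to 0), 0 to 365 in tumors (0 to 1) and 0 to 157 for the interaction (0 to 0). The upper end came without S12 for tumor over normal in Lrig1-low cells and without S04 for the other comparisons with calls, and the lower end came without S01 in Lrig1-low cells and without S11 over both fractions. Of 569 alternative values of 25 fold changes described above, 3 turned sign and 13 passed the threshold where the value reported had not. Ncl for tumor over normal in Lrig1-low cells was -0.00307 with S15, and Myc for Lrig1-high over Lrig1-low in tumors was 0.0044 in limma-voom and 0.17 without the 4 libraries. The median of the 34 for Lrig1-high over Lrig1-low in normal cells stayed between 0.38 and 0.89, with 30 positive in every setting that was run. The other medians moved more when 1 library was left out. The median for tumor over normal was 0.28 in Lrig1-low cells and 0.11 without S05, and in Lrig1-high cells it was -0.39, against -0.79 without S04 and -0.21 without S08. Over both fractions it was -0.05 and turned to 0.02 without S08. In tumors it was -0.17, against -0.56 without S04 and -0.03 without S12. Groups of 3 and 4 libraries, 4 of them against their label, limit what these tests can show.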

Other observations

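Cytoplasmic ribosomal protein genes, which encode the proteins that the factors above assemble, were measured in 79 tested genes. For Lrig1-high over Lrig1-low in normal cells 76 of the 79 were positive, with a median log2 fold change of 0.23, and none was called in edgeR, with 5 higher and 1 lower at an unadjusted p under 0.05, against 2.54% and 1.06% of all genes. For tumor over normal in Lrig1-low cells 65 of the 79 were negative, with a median of -0.10, where 29 of the 34 genes of the Myc and assembly group were positive. In Lrig1-high cells 58 of the 79 were negative, with a median of -0.24. Over all genes tested, 52% were positive for tumor over normal in Lrig1-low cells and 47.4% in Lrig1-high cells.

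Of 10 Wnt targets, Sp5 and Cd44 rose in tumor over normal Lrig1-low cells, where 0.31% of all genes tested were higher. Sp5, a transcription factor, averaged 34.7 ± 31.3 CPM in tumor and 3.25 ± 1.82 CPM in normal Lrig1-low cells (SD, n = 3 and 4), a log2 fold change of 3.41 ± 0.60 (edgeR adjusted p = 0.0337). Cd44, a hyaluronan receptor, averaged 241.7 ± 84.5 CPM in tumor and 28.8 ± 17.4 CPM in normal Lrig1-low cells, a log2 fold change of 3.07 ± 0.44 (edgeR adjusted p = 0.0106). Myc, also a known Wnt target, had 1.23 ± 0.56 in the same comparison and was not called there. Between tumor and normal Lrig1-high cells Sp5 and Cd44 had 0.89 ± 0.57 and 1.08 ± 0.42, neither past the threshold.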
